A study of Mus musculus with 12 samples.

Results

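The 10 genes described here encode products of the serous and mucous glands and ducts of the mouth: the secreted proteins Muc5b, Dmbt1, Bpifb1, Amy1, Ltf, Lpo, Wfdc2 and Dcpp2, and the membrane channels Aqp5 and Ano1. They were taken by name from the 52670 gene symbols of the deposited tables, with earlier results of these data known. All 10 were among the 17432 genes tested. Their levels were followed over 12 libraries of epithelium from the mouse circumvallate papilla, a taste papilla far back on the tongue that holds many taste buds. All mice were of the genotype Sox2GFP, in which green fluorescent protein (GFP) reports the transcription factor Sox2, and all were adults of 11 to 12 weeks. The peeled and dissociated epithelium was sorted by GFP brightness into 4 bins, called Low, MedLow, HiMed and High, with 3 libraries each. No other genotype, treatment or age was included, and cells without GFP were discarded. Every library was therefore made from cells sorted as GFP-positive, and RNA carried over from other cells was not measured here. Each replicate pooled 7 to 13 mice, and p-values therefore measure the spread between these pools rather than between animals. The libraries are bulk RNA, in which fewer cells of a type and less RNA per cell cannot be told apart.

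Von Ebner glands are minor salivary glands whose ducts open into the trenches of the circumvallate papilla, so that their secretion rinses the taste buds. Serous acinar cells make enzymes and defence proteins, such as lipase, amylase and peroxidase, while mucous cells make gel-forming mucins. Acinar and duct cells move chloride and water through channels such as Ano1 and Aqp5, which makes the secretion fluid. Several of these proteins are also made by the surface epithelium of moist linings, so a transcript of this kind is not by itself a mark of gland cells.

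Sox2 rose with the bins, from 70.3 ± 6.17 CPM in Low to 373 ± 12.8 in High (mean ± SD, n = 3 libraries, as for every value with ± below). Totals per library ran from 25.7 M to 55.6 M counts. CPM here are counts scaled to a common library total by TMM (trimmed mean of M values). Differences were tested with edgeR's quasi-likelihood test, with p adjusted by the Benjamini-Hochberg method over all 17432 genes, and a gene was called when the adjusted p was below 0.05. Other markers of serous secretion ranged widely, with the lipase gene Lipf at 272 ± 189 CPM in Low. Of 18 further genes of serous secretions, 8 had 0 counts in all 12 libraries, among them the odorant carriers Lcn3, Lcn4, Lcn11, Obp2a and Obp2b. A count of 0 in a bin allows up to 3 counts over its 3 libraries, or 0.0200 CPM in High and 0.0283 CPM in Low, for counting error only.

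Dcpp2 belongs to a small family of demilune cell and parotid proteins, so its reads can be shared with Dcpp1 and Dcpp3. Of all 31-base stretches in the Dcpp2 transcripts of GENCODE M21, 56.0% also occur in transcripts of another gene, and 46.0% occur in Dcpp3. Its coding sequence is 95.3% identical to that of Dcpp3 and 93.8% identical to that of Dcpp1. Stretches of 120 coding bases were compared only in the later part of the sequence. Of these, the stretch shown next holds the most differences among the 3 genes (bases 277 to 396 of Dcpp1 and Dcpp2, 274 to 393 of Dcpp3, counted from the A of the start codon). Capitals mark the 26 positions where at least 1 of the 3 has another base.
Dcpp1: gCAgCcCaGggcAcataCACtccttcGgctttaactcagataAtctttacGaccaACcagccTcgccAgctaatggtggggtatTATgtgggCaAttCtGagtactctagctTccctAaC
Dcpp2: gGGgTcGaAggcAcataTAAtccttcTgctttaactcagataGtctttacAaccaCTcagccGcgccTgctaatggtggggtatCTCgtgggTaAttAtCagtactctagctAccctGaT
Dcpp3: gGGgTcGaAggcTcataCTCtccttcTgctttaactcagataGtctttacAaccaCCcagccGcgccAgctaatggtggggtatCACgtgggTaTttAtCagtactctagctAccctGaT
The capitals are the positions in this stretch by which reads can be told apart. At most of them Dcpp2 and Dcpp3 have the same base, so that only Dcpp1 can be told from the others there. The counts of each Dcpp gene are uncertain to the extent that reads fall between such positions. Amy1 shares 37.3% of its 31-base stretches with other genes, the most of them (32.2%) with Rnpc3. For the other 8 genes the shared part was at most 0.277%.

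Promoters of 8 of the 10 genes were found in the RefSeq table (build GRCm38.p6, 250 bases before to 50 after the transcript start). Muc5b and Dmbt1 were not matched. Promoters of 4 genes are shown for the profiles that follow: Dcpp2 and Bpifb1, which had their largest means in Low, and Aqp5 and Ano1, which had theirs in High. Capitals mark the letters TATAA (the core of a common promoter element), searched on both strands in the 50 bases before the start.
Dcpp2 (chr17:23898472-23898771, + strand): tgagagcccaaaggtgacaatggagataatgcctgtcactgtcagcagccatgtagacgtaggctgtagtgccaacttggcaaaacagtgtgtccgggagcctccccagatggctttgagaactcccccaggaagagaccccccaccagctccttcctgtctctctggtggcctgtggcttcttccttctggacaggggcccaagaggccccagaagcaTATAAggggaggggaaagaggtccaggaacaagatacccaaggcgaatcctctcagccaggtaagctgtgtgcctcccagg
Bpifb1 (chr2:154200130-154200429, + strand): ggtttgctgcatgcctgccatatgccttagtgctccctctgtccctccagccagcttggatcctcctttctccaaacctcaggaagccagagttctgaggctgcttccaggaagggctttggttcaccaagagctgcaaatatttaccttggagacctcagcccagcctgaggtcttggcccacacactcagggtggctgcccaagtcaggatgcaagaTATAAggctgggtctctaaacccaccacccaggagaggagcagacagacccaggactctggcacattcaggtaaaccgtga
Aqp5 (chr15:99590778-99591077, + strand): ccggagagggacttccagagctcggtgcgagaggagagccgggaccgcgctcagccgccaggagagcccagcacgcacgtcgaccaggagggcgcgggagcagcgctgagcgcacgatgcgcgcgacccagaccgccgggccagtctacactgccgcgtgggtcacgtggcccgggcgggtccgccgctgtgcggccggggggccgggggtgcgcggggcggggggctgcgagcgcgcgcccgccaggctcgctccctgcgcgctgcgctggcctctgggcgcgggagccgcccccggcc
Ano1 (chr7:144738524-144738823, - strand): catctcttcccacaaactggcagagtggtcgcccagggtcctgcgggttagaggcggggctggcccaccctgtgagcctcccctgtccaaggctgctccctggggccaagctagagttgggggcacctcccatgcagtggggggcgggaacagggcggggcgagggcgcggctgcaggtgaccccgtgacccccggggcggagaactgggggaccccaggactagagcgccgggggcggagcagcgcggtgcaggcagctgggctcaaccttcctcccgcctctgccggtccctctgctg
TATAA begins 31 bases before the start in both Dcpp2 and the Bpifb1 promoter shown. RefSeq gives Bpifb1 a further promoter, which lacks these letters in this window. Promoters of the other 6 matched genes lack them too, and 6.36% of the 32851 promoters listed hold them. The Aqp5 promoter is 79.7% G or C with 46 CG pairs and that of Ano1 71.7% with 18, against 57.0% with 3 in Dcpp2 and a median over all promoters of 52.7% with 7. The motif and the composition were examined after the profiles were known and are given as a description.

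Over the 4 bins the 10 genes did not share 1 profile. Muc5b, Dmbt1, Bpifb1, Amy1 and Dcpp2 had their largest mean in Low, Ltf, Lpo and Wfdc2 in HiMed, and Aqp5 and Ano1 in High. In the test of any difference among the 4 bins, 9 of the 10 genes were called, against 42.0% of all genes tested. Lpo was the exception (adjusted p = 0.186 in edgeR, 0.0421 in DESeq2). Between High and Low, 6 of 10 were called, where 41.2% of all genes were called. Of these, 2 were higher in High (20% of all genes) and 4 were lower (21.2% of all genes). The median log2 fold change of the 10 was -2.71, beside -0.01 over all genes tested. High and Low libraries did not overlap for 9 of the 10 genes (all but Amy1), against 52.4% of all genes.

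**Figure D1:**
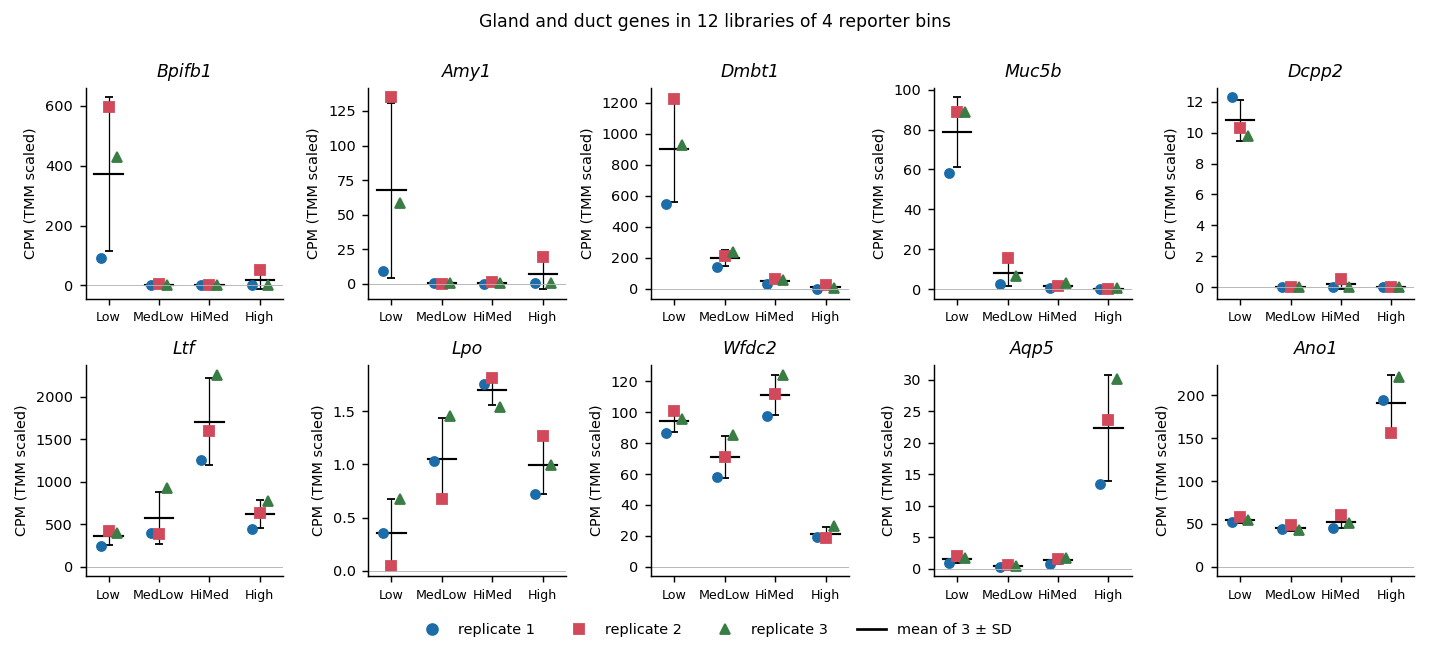
CPM of the 10 genes in the 12 libraries, with 1 panel per gene and its own axis from 0; points are libraries by replicate number, and the black bar and whiskers are the mean and SD of 3. The upper 5 genes have their largest mean in Low, Ltf, Lpo and Wfdc2 peak in HiMed, and Aqp5 and Ano1 stand apart in High.

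The gel-forming mucin Muc5b, a product of mucous and seromucous cells, had a lower mean in each brighter bin. It stood at 58.3, 88.8 and 88.8 CPM in Low libraries, at 2.55, 15.4 and 6.63 in MedLow libraries, at 0.514, 1.50 and 3.08 in HiMed libraries and at 0, 0.272 and 0.319 in High libraries. Every Low library was above every MedLow library and every HiMed library above every High one, while MedLow and HiMed overlapped. Muc5b fell by 8.56 on the log2 scale from Low to High (SE 1.06, edgeR adjusted p = 1.8e-04) and it fell by 3.26 from Low to MedLow (SE 0.75, edgeR adjusted p = 0.0386). The step from HiMed to High had a log2 fold change of -3.07 (SE 1.07) and was not called (edgeR adjusted p = 0.0775, 0.026 with the replicate number as a block, 0.0223 with edgeR's default estimate of spread and 0.0118 in DESeq2). The step from MedLow to HiMed (-2.24, SE 0.78) was not called either (edgeR adjusted p = 0.104, 0.0373 with the block and 0.033 with the default spread). The call against MedLow was lost without any 1 of the 6 libraries compared except MedLow replicate 2, and also without 3 libraries of the other bins, with adjusted p up to 0.161. The profiles most like that of Muc5b were those of Aox3 (r = 0.978), Trabd2b (0.976) and the keratin gene Krt36 (0.974).

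Of 8 mucins tested besides Muc5b, 2 rose and 2 fell from Low to High, where 20% of all genes rose and 21.2% fell. Muc4, a membrane mucin, rose from 0.514 ± 0.0837 to 11.1 ± 2.71 CPM, and Muc15, another membrane mucin, rose from 9.52 ± 3.01 to 19.8 ± 3.17. Muc13 fell from 7.19 ± 2.40 to 0.224 ± 0.211 and Muc1 from 2.25 ± 0.707 to 1.16 ± 0.0682. Muc5ac, the gel-forming mucin of surface mucous cells, was not called, at 1.32 ± 1.00 CPM in Low and 0.741 ± 0.360 in High. Muc5b shares 0.211% of its 31-base stretches with Muc5ac.

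Dmbt1, a scavenger receptor protein of saliva that binds bacteria, had a lower mean in each brighter bin. Dmbt1 stood at 549, 1223 and 927 CPM in Low libraries, at 141, 213 and 240 in MedLow libraries, at 31.8, 60.0 and 55.7 in HiMed libraries and at 0, 22 and 4.06 in High libraries. The 3 libraries of each bin lay below all 3 of the bin before it. Dmbt1 fell by 6.68 on the log2 scale from Low to High (SE 1.27, edgeR adjusted p = 0.00297). Its single steps did not pass the test over all 12 libraries, with log2 fold changes of -2.18 for MedLow over Low (SE 1.03, adjusted p = 0.339 in edgeR), -2.01 for HiMed over MedLow (SE 1.03, 0.274) and -2.48 for High over HiMed (SE 1.07, 0.146). Without High replicate 2, the library with the most Dmbt1 in High, the last step was -4.56 and passed (edgeR adjusted p = 0.0203). It also passed in TPM (limma adjusted p = 0.00416 to 0.0198 over 3 settings). With only the 2 bins compared in the fit, the first step passed (edgeR adjusted p = 0.0421), as did the second (0.017). The closest profiles belonged to Pus1 (r = 0.988), Timm50 (0.982) and Hnrnpm (0.977), whose means moved far less, as for Pus1 from 59.4 CPM in Low to 26.6 in High.

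Other transcripts moved along the same order as Muc5b and Dmbt1, and their part in it was not tested. Summed CPM of 6 basal keratinocyte genes ran from 32296 to 32731 in Low and from 4704 to 7348 in High. Summed CPM of 8 fibroblast genes ran from 591 to 632 in Low and from 8.37 to 17.4 in High. The fall of the fibroblast sum was that of 1 gene, Dcn (608 ± 20.8 CPM in Low and 6.95 ± 4.20 in High), and not of the list. Of 3 list genes tested, Dcn fell and Pdgfra rose, from 2.67 ± 0.833 to 5.99 ± 2.30 CPM (edgeR adjusted p = 0.0418). The collagens Col1a1, Col1a2 and Col3a1 were at or below 0.980 CPM in every bin mean, and Lum was at 0 in all libraries.

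Bpifb1, a lipid-binding defence protein of airway and salivary glands, had a large but uneven signal in Low. Bpifb1 stood at 92.8, 596 and 429 CPM in Low libraries, at 0.129, 3.87 and 0.105 in MedLow libraries, at 0, 0.547 and 0.145 in HiMed libraries and at 0, 50.8 and 0.418 in High libraries. Low libraries were above all others, and High replicate 2 stood apart from the other 2 High libraries. In each of the 4 bins replicate 2 held the highest value.

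Amy1, the salivary amylase, had a similar profile at a lower level, although in MedLow replicate 2 was its lowest library. Amy1 stood at 9.35, 135 and 58.6 CPM in Low libraries, at 0.411, 0.194 and 0.421 in MedLow libraries, at 0, 1.31 and 0.688 in HiMed libraries and at 0.495, 19.2 and 0.976 in High libraries. High replicate 2 lay above Low replicate 1, so the groups Low and High overlapped. As a share of the Low mean, that High library held 28.3% for Amy1 and 13.6% for Bpifb1, but 2.44% for Dmbt1 and 0.346% for Muc5b.

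Both genes differed among the 4 bins, with edgeR adjusted p = 0.0123 for Bpifb1 and 0.0143 for Amy1 (0.0575 for Amy1 without Low replicate 2). Neither was called in edgeR between High and Low. For Bpifb1 the log2 fold change was -4.43 (SE 1.81, edgeR adjusted p = 0.085), and for Amy1 it was -3.28 (SE 1.46, edgeR adjusted p = 0.111). Those 2 results turned on 1 library and on the model. Without High replicate 2 the log2 fold change was -10.70 for Bpifb1 (edgeR adjusted p = 0.00332) and -6.50 for Amy1 (edgeR adjusted p = 0.0118). With the replicate number as a block, the edgeR adjusted p was 0.00725 for Bpifb1 and 0.0176 for Amy1. With edgeR's default estimate of spread in place of the robust one used here, it was 0.023 for Bpifb1 and 0.0359 for Amy1. In limma on log2(TPM + 1) the adjusted p was 0.00221 for Bpifb1 and 0.0246 for Amy1. MedLow against Low gave log2 fold changes of -8.05 for Bpifb1 (SE 2.25, edgeR adjusted p = 0.0844) and -7.62 for Amy1 (SE 1.95, 0.0597), which passed with the block at 0.0135 and 0.0175 and with the default spread at 0.0143 and 0.00846. For Bpifb1 in High over HiMed the log2 fold change was 6.34 and was not called (edgeR adjusted p = 0.131, 0.0431 with the default spread, and 0.0303 in DESeq2). Without High replicate 2 it was 0.07.

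Of all genes with a mean of at least 5 CPM, those whose log2(CPM + 1) followed Bpifb1 most closely over the 12 libraries were Lipf (Pearson r = 0.998), Sbpl (0.988) and Prb1 (0.970). Lipf encodes the lipase that von Ebner glands secrete, and Prb1 a salivary proline-rich protein. In that search the same 3 genes were the closest to Amy1, with r = 0.992 for Prb1, 0.958 for Lipf and 0.945 for Sbpl. Bpifb1 and Amy1 correlated at 0.96. The 12 points share their libraries and bins, and these values are descriptions. Lipf had 64.3, 433 and 320 CPM in Low, 0 in all 3 HiMed libraries and 29.3 CPM in High replicate 2, with 0 and 0.219 in the other 2 High libraries.

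In the libraries with at least 1000 counts of Bpifb1, the 3 Low ones and High replicate 2, the other gland transcripts can be set against it. There were 69.3, 72.6 and 74.6 Lipf counts per 100 Bpifb1 counts in the Low libraries and 57.7 in High replicate 2. For Amy1 the counts per 100 were 10.1, 22.7 and 13.7 in Low and 37.7 in that High library, and for Prb1 they were 4.67, 10.5 and 6.96 against 21. Both were higher in the High library than in each Low library. Other products went the opposite way. Sbpl had 103, 53.2 and 65.0 counts per 100 in Low and 32.0 in High replicate 2. Dmbt1 had 592, 205 and 216 counts per 100 in Low and 43.2 in High replicate 2. Muc5b had 62.8, 14.9 and 20.7 against 0.536, and Dcpp2 had 13.3, 1.73 and 2.29 against 0. Wfdc2 lay within the Low range, with 93.6, 17 and 22.3 against 37.0. Apart from Wfdc2, these ratios lay outside the range of the 3 Low libraries. How gland transcripts came into that library was not tested.

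**Figure D2:**
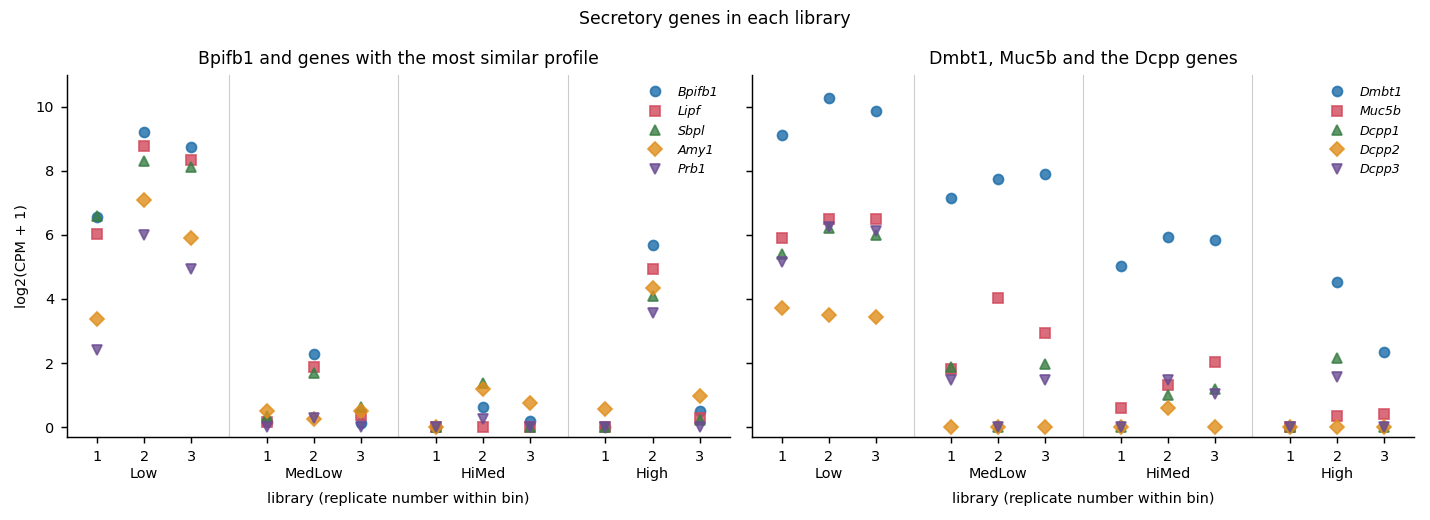
Log2(CPM + 1) of 10 secretory genes in each library, with bins along the x axis and replicate numbers within them; each symbol is 1 gene in 1 library. The genes of the left panel are high in Low and return in High replicate 2, where Bpifb1 has 50.8 CPM, while in the right panel Dmbt1 and Muc5b have lower means in each brighter bin and Dcpp2 is at 0 in all but 1 library outside Low.

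Dcpp2 had counts in all 3 Low libraries and in 1 library outside Low. Its Low libraries held 12.3, 10.3 and 9.81 CPM, all MedLow and all High libraries 0, and the HiMed libraries 0, 0.520 and 0, where replicate 2 had 19 counts. Low did not overlap with any other bin. Against the floor of 3 counts per bin, Dcpp2 was at least 540-fold lower in High than in Low (edgeR adjusted p = 0.00657) and at least 426-fold lower in MedLow (edgeR adjusted p = 0.0371). The MedLow call was lost without any 1 of the 6 libraries compared (adjusted p up to 0.119), with the replicate number as a block (0.0761) and without a filter on low counts (0.133).

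Its relatives were higher in Low and had counts in 5 of the 9 libraries outside Low. Both were at 0 in MedLow replicate 2, HiMed replicate 1 and High replicates 1 and 3. Dcpp1 had 59.1 ± 16.3 CPM in Low and 1.16 ± 2.01 in High, and Dcpp3 had 59.3 ± 21.6 and 0.647 ± 1.12, and both fell from Low to High (edgeR adjusted p = 0.0294 and 0.0134). In High their signal came from replicate 2, with 3.48 CPM of Dcpp1 and 1.94 of Dcpp3, where Dcpp2 had 0 counts. Because the 3 coding sequences differ at few positions, the split of such low counts among them is uncertain. The profile most like that of Dcpp2 was that of Enpep, a membrane aminopeptidase (r = 0.976, 22.3 CPM in Low), followed by Dcpp3 (0.957) and the clotting factor gene F5 (0.949).

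Ltf, lactoferrin, an iron-binding antibacterial protein of secretions, was high in all 12 libraries and highest in HiMed. Ltf stood at 247, 425 and 394 CPM in Low libraries, at 399, 387 and 921 in MedLow libraries, at 1256, 1597 and 2258 in HiMed libraries and at 441, 636 and 768 in High libraries. All HiMed libraries lay above all others. From HiMed to High Ltf fell by 1.47 on the log2 scale (SE 0.41, edgeR adjusted p = 0.0347), and HiMed exceeded MedLow by 1.58 (SE 0.42, edgeR adjusted p = 0.0383). High over Low, 0.79 (SE 0.41), was not called although the libraries did not overlap (edgeR adjusted p = 0.164, 0.0194 with the replicate block). Neither call against a neighbouring bin was firm. The call of High against HiMed was lost without any 1 of the 6 libraries compared except HiMed replicate 1 (adjusted p up to 0.109), and the call of HiMed against MedLow was lost without any 1 of 5 of the 6, with MedLow replicate 3 the exception (up to 0.143). Without a filter on low counts neither was called (edgeR adjusted p = 0.0561 and 0.0603).

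Neutrophils also store lactoferrin. The 9 neutrophil genes listed together had at most 1.99 CPM in any library, and Camp and Elane were at 0 in all 12. S100a8 and S100a9, listed here among the mucosal defence genes, had more. S100a8 had 9.85 ± 6.62 CPM in MedLow, 8.18 ± 5.32 in HiMed and 2.73 ± 0.935 in High. S100a9 had 12.9 ± 8.60, 13.7 ± 7.52 and 1.69 ± 1.58 in the same bins. A part of neutrophils in the Ltf levels was not tested. Of the other transferrins and peroxidases, Trf, the plasma iron carrier, went another way, from 5.05 ± 2.10 CPM in Low to 0 counts in all High libraries, at least 252-fold lower (edgeR adjusted p = 2.5e-05). The genes most like Ltf in profile were Dnajc3 (r = 0.940), Pdia6 (0.933) and Spcs2 (0.932), which encode proteins of the endoplasmic reticulum. Their own means moved little, as for Pdia6 with 141 CPM in Low and 199 in HiMed.

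Lpo, lactoperoxidase, an antibacterial enzyme of saliva, was close to the lower limit of detection. Lpo stood at 0.353, 0.0403 and 0.675 CPM in Low libraries, at 1.03, 0.678 and 1.45 in MedLow libraries, at 1.75, 1.81 and 1.54 in HiMed libraries and at 0.720, 1.27 and 0.996 in High libraries. These rest on 42 counts in all of Low and 226 in HiMed. HiMed libraries lay above all others and Low libraries below all others, yet none of the 4 tests between bins called Lpo in edgeR, with adjusted p from 0.171 to 0.669. In the deposited TPM, a level per transcript length, High replicate 3 stood apart at 5.69, though its 50 counts did not, and in TPM the mean of High (2.31 ± 2.93) was above that of HiMed (0.983 ± 0.0842). The closest profiles were those of Dynlt1f (r = 0.941), the potassium channel gene Kcnh2 (0.937) and Plppr4 (0.927).

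Wfdc2, a small secreted protein with protease inhibitor domains that is made by many ducts and surface linings, was between 57.9 and 124 CPM in 9 libraries and lower in High. Wfdc2 stood at 86.8, 101 and 95.8 CPM in Low libraries, at 57.9, 71.0 and 85.0 in MedLow libraries, at 97.7, 112 and 124 in HiMed libraries and at 19.2, 18.8 and 26.4 in High libraries. High libraries were below all others. From HiMed to High Wfdc2 fell by 2.37 on the log2 scale (SE 0.16, edgeR adjusted p = 5.3e-07), and from Low to High it fell by 2.14 (SE 0.16, edgeR adjusted p = 1.6e-07). HiMed exceeded MedLow by 0.64 (SE 0.15, edgeR adjusted p = 0.0128), a call lost without HiMed replicate 3 (0.0578) or MedLow replicate 2 (0.0527). MedLow over Low, -0.41 (SE 0.15), was not called in edgeR (adjusted p = 0.161, 0.0116 with the replicate block).

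Genes of type II taste cells, which detect sweet, bitter and umami, were also lower at the step from HiMed to High. Of 14 such genes 10 fell and 0 rose, where 11.7% of all genes fell and 10.6% rose. Summed CPM of the 14 ran from 827 to 1018 in HiMed and from 429 to 509 in High, where the bitter receptor Tas2r105 was at 0. The fall at this step was not particular to them. Of 6 basal keratinocyte genes 5 fell and 0 rose, and of 8 suprabasal keratinocyte genes 5 fell and 0 rose. Summed CPM of the 8 ran from 8543 to 25407 in HiMed and from 3153 to 4731 in High. The part of any of these lists in the falls of Wfdc2 and Ltf was not tested.

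Of 18 symbols of the Wfdc family, 9 had 0 counts throughout and 5 were tested. Wfdc5 rose from 1.88 ± 0.989 CPM in Low to 6.76 ± 1.99 in High (edgeR adjusted p = 0.0106). Wfdc18, at 265 ± 87.6 CPM in Low, 53.1 ± 22.1 in MedLow and 205 ± 31.8 in High, fell from Low to MedLow only among the 4 tests. The profiles closest to that of Wfdc2 were those of Ap2a2 (r = 0.960), Fat1 (0.950) and Pcsk1 (0.946), a prohormone convertase with 9.73 CPM in Low and 2.11 in High.

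Aqp5, the water channel of serous acinar cells, was scarce outside High. Aqp5 stood at 0.918, 2.06 and 1.76 CPM in Low libraries, at 0.334, 0.532 and 0.474 in MedLow libraries, at 0.701, 1.61 and 1.67 in HiMed libraries and at 13.4, 23.7 and 30.1 in High libraries. High libraries were above all others, and MedLow libraries were below all others. Aqp5 rose from HiMed to High by 4.07 on the log2 scale (SE 0.42, edgeR adjusted p = 7.7e-06) and from Low to High by 3.84 (SE 0.42, edgeR adjusted p = 2.3e-06). It was lower in MedLow than in Low (-1.80, SE 0.43, edgeR adjusted p = 0.0189) and higher in HiMed than in MedLow (1.56, SE 0.43, edgeR adjusted p = 0.0226). These smaller differences rest on 53 counts in MedLow. In the deposited TPM, tested with limma on log2(TPM + 1), the first was -0.67 and was not called (adjusted p = 0.369), and the second was 0.98 and was not called (adjusted p = 0.0873). With 0.1 in place of 1 added to TPM, the first was -1.12 and again not called (limma adjusted p = 0.238). TPM and counts ranked the HiMed libraries in different orders, as replicate 1 had the fewest counts (30) and the largest TPM (4.17). The first call was also lost without any 1 of 4 of its 6 libraries (adjusted p up to 0.0932), MedLow replicate 2 and Low replicate 1 being the exceptions, and the second without any 1 of 5, HiMed replicate 1 being the exception (adjusted p up to 0.0974).

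Ano1, the calcium-activated chloride channel that drives fluid secretion, was between 43.2 and 60.4 CPM in 9 libraries and higher in High. Ano1 stood at 51.6, 57.5 and 54.4 CPM in Low libraries, at 43.6, 48.4 and 43.2 in MedLow libraries, at 45.4, 60.4 and 51.4 in HiMed libraries and at 195, 156 and 222 in High libraries. High libraries did not overlap with any other bin. Ano1 rose from HiMed to High by 1.86 on the log2 scale (SE 0.13, edgeR adjusted p = 1.9e-07) and from Low to High by 1.81 (SE 0.13, edgeR adjusted p = 2.7e-08). Its steps among the lower bins were -0.27 (SE 0.12, edgeR adjusted p = 0.264) and 0.22 (SE 0.12, edgeR adjusted p = 0.296).

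Genes of type I taste cells, the glia-like cells of the taste bud, moved at the same step. Summed CPM of 4 such genes ran from 12.6 to 18.7 in HiMed, from 63.0 to 74.0 in Low and from 204 to 367 in High, with none of the 4 at 0 in High. Of the 4, 3 rose from HiMed to High and from Low to High, and Slc1a3, a glutamate transporter, fell in both. Of all genes, 10.6% rose and 11.7% fell from HiMed to High, and 20% rose and 21.2% fell from Low to High. Entpd2, an enzyme that breaks down ATP, rose from 12.2 ± 1.23 CPM in HiMed to 205 ± 64.1 in High, a log2 fold change of 4.07 (SE 0.22, edgeR adjusted p = 3.0e-07). Kcnj1, a potassium channel, rose by 4.55 (SE 0.62) and Oxtr, the oxytocin receptor, by 3.79 (SE 0.81). Slc1a3 had 49.7 ± 3.89 CPM in Low, 1.17 ± 0.996 in HiMed and 0.0725 ± 0.126 in High. Their part in the rise of Aqp5 and Ano1 was not tested.

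Aqp5 and Ano1 correlated at r = 0.98 over the 12 libraries, as a description. High replicate 2, where the secreted products Bpifb1 and Amy1 were high, was the middle High library for Aqp5 and the lowest for Ano1. The profile closest to Ano1 was that of Fgfrl1, a receptor of the FGF family (r = 0.992), with 14.7 CPM in Low and 178 in High. Closest to Aqp5 were Ddah2 (r = 0.984), Pik3ap1 (0.983) and the chloride channel Cftr (0.981). Cftr rose from 6.13 ± 2.86 CPM in Low to 107 ± 48.2 in High (edgeR adjusted p = 1.7e-04).

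Of 7 other anoctamins tested, 3 rose and 2 fell from Low to High, where 20% of all genes rose and 21.2% fell, with changes up to 3.33 on the log2 scale for Ano2, which stood at 0.104 ± 0.120 CPM in Low and 1.14 ± 0.844 in High. Ano9 fell from 55.5 ± 2.70 CPM in HiMed to 29.5 ± 0.740 in High (edgeR adjusted p = 5.4e-06). Among 3 other aquaporins tested, Aqp11 rose from 0.694 ± 0.211 to 25.8 ± 6.53 CPM between Low and High (edgeR adjusted p = 6.9e-08). Aqp3, the most abundant aquaporin here, fell from 690 ± 131 CPM in HiMed to 356 ± 93.8 in High. Aqp4 was at 13.2 ± 2.20 CPM in HiMed and 0.290 ± 0.503 in High, and fell between them (edgeR adjusted p = 0.006).

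Across the steps between neighbouring bins, counts of called genes were small. High against HiMed called 4 of the 10, with Aqp5 and Ano1 higher and Ltf and Wfdc2 lower, where 22.3% of all genes were called, 10.6% higher and 11.7% lower. HiMed against MedLow called 3, Ltf, Wfdc2 and Aqp5, all higher in HiMed, where 13.6% of all genes were called and 7.33% were higher. MedLow against Low called 3, Muc5b, Aqp5 and Dcpp2, all lower in MedLow, where 6.47% of all genes were called and 2.50% were lower. These comparisons share bins, and so the steps of a gene are not independent of each other.

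**Figure D3:**
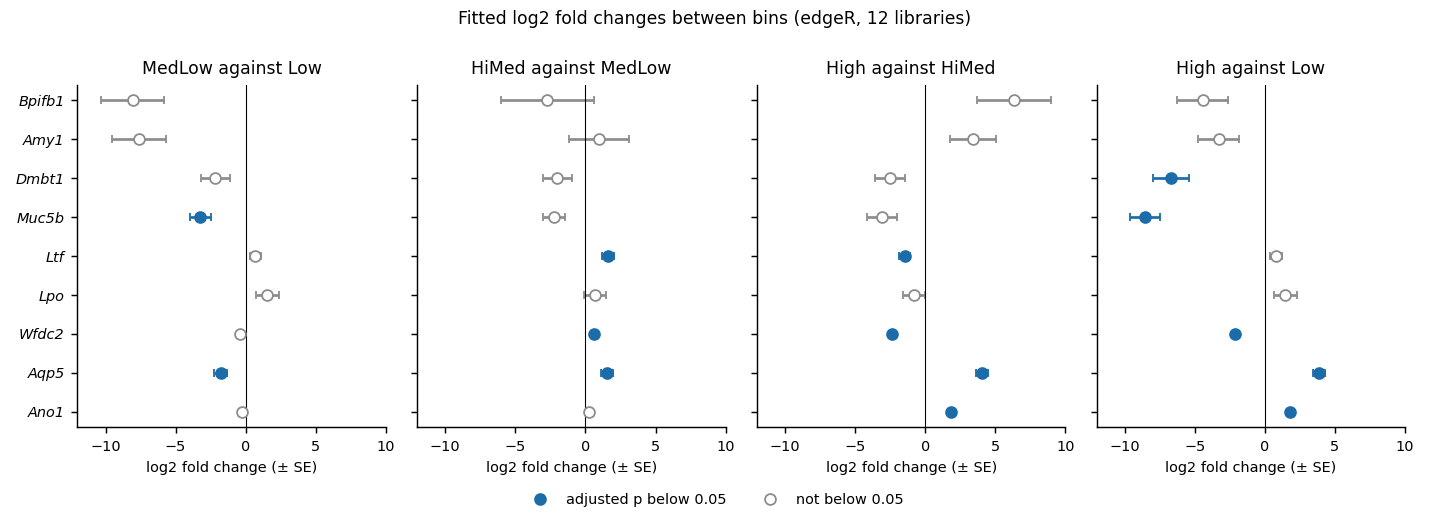
Fitted log2 fold changes with standard errors for 9 genes in 4 comparisons; filled points have an edgeR adjusted p below 0.05, and Dcpp2 is left out because its fold against bins at 0 is a bound. Standard errors of Bpifb1 and Amy1 reach 3.30 and 2.14, while those of Ano1 and Wfdc2 are at most 0.16.

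Gland cell genes that are not secreted products were mixed. Of 13 genes of the acinar secretory machinery, all tested, 7 rose and 2 fell from Low to High, where 20% of all genes rose and 21.2% fell, and their median log2 fold change was 0.33. Sox10, a transcription factor of acinar cells and of glia, fell from 6.97 ± 1.99 to 0.0332 ± 0.0575 CPM (edgeR adjusted p = 4.2e-05), and the muscarinic receptor Chrm1 also fell, from 0.343 ± 0.166 CPM in Low to 0 counts in High (edgeR adjusted p = 0.0356). Among those that rose were Xbp1, a regulator of secretory capacity in many tissues (139 ± 11.8 to 413 ± 88.3 CPM), and Creb3l2, a related factor (50.6 ± 4.76 to 183 ± 41.8 CPM). Bhlha15, the acinar cell regulator Mist1, had 1.19 ± 0.204 CPM in Low and at most 0.540 as a mean in the other bins, and was not called.

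Among 11 duct and ionocyte genes tested, 3 rose and 2 fell from Low to High, where 20% of all genes rose and 21.2% fell. The median log2 fold change of the 11 was 0.50. Besides Cftr, Krt7 and Krt19, keratins of simple and duct epithelia that taste cells also make, rose to 652 ± 199 and 711 ± 250 CPM in High. Klk1, the kallikrein of granular ducts, fell from 1.19 ± 0.811 to 0.0150 ± 0.0260 CPM (edgeR adjusted p = 0.0276). Foxi1, the ionocyte regulator, had 2.14 ± 0.704 CPM in Low, 0 counts in MedLow and 5.64 ± 0.727 CPM in High, and was called in each of the 3 steps between neighbouring bins.

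Of 9 secretory genes of mucous cells tested, 5 rose and 0 fell from Low to High in edgeR, where 20% of all genes rose and 21.2% fell, with a median log2 fold change of 1.60 beside -0.01 over all genes. Fcgbp, a mucus protein, had 76.8 ± 18.5 CPM in Low, 17.3 ± 2.11 in MedLow and 334 ± 142 in High. Gcnt3, a mucin glycosyltransferase, rose from 1.31 ± 0.244 to 57.6 ± 17.6 CPM. The list did not move as 1. Agr2 (9.58 ± 3.33 CPM in Low and 6.30 ± 2.30 in High) and Creb3l1 (3.32 ± 1.06 and 2.94 ± 1.54) were not called between High and Low. Tff2 and Tff3 had 0 counts in High. Of 14 mucosal defence genes tested, 3 rose and 5 fell from Low to High, where again 20% of all genes rose and 21.2% fell. The protease inhibitor Slpi was among the defence genes that fell (46.4 ± 10.7 to 0.560 ± 0.707 CPM). Of the serous secretions, 4 were tested and 1 was called between High and Low, where 41.2% of all genes were called. The 1 called was the lysozyme gene Lyz2, which rose from 32.7 ± 8.49 to 172 ± 113 CPM. Lyz2 is also a gene of macrophages, and summed CPM of 10 leukocyte genes ran from 5.20 to 9.78 in High and from 4.57 to 8.85 in Low. Of 5 leukocyte genes tested, Itgam rose from 0.799 ± 0.447 to 3.09 ± 1.16 CPM, while the macrophage receptor Csf1r (1.09 ± 0.967 CPM in Low) and the B cell gene Cd79a (0.437 ± 0.312) fell to 0 counts in High (edgeR adjusted p = 0.0261, 0.0132 and 0.0325).

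Levels can be compared between genes only per transcript length, in TPM. In Low, Bpifb1 (386 ± 268 TPM), Ltf (330 ± 89.0), Dmbt1 (259 ± 96.9) and Wfdc2 (230 ± 32.8) led, and libraries of neighbours in that order overlapped. In MedLow and HiMed, Ltf led with 542 ± 300 and 1699 ± 423 TPM, followed by Wfdc2 with 169 ± 30.8 and 281 ± 21.4, with no overlap between the 2 genes. In High the order was Ltf (720 ± 187), Ano1 (152 ± 36.0), Wfdc2 (60.1 ± 11.7) and Aqp5 (31.9 ± 11.3), each apart from the next in all 3 libraries. Dmbt1 passed from 259 ± 96.9 TPM in Low to 2.69 ± 3.42 in High.

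The share of each gene's spread that lay between bins was computed on log2(CPM + 1). It was 98.9% for Dcpp2, 97.1% for Ano1, 96.4% for Wfdc2, 95.9% for Aqp5 and 94.3% for Muc5b. The share was lower for Dmbt1 (88.5%), Bpifb1 (81.4%), Ltf (80.1%), Lpo (76.8%) and Amy1 (74.6%), and the median of all genes tested was 60.3%. Replicate numbers held the largest share in Ltf (15.1%), Amy1 (13.8%) and Bpifb1 (11.4%), beside a median of 8.06%. With the bins allowed for, the test of any difference among replicate numbers called 0 of the 10 genes in edgeR, where 0.774% of all genes were called. At an unadjusted p below 0.05 there were 6 (Muc5b, Bpifb1, Amy1, Ltf, Wfdc2 and Aqp5), beside 10.7% of all genes. DESeq2 called 4 (Bpifb1, Ltf, Wfdc2 and Aqp5), beside 5.12% of the genes to which it gave an adjusted p.

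**Figure D4:**
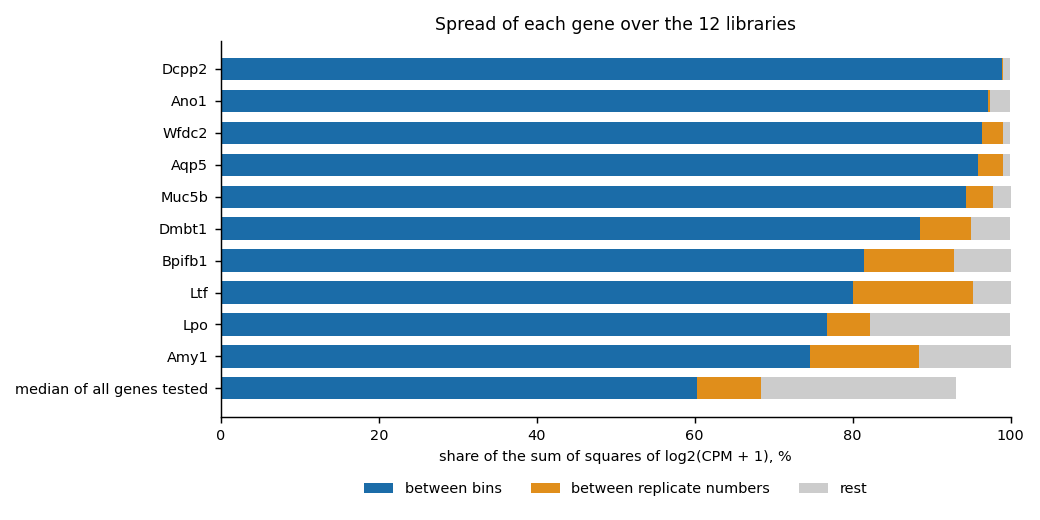
Share of the sum of squares of log2(CPM + 1) over 12 libraries that lies between bins, between replicate numbers and in the rest, for each gene and as the median of each share over all genes tested (these medians need not add to 100%). All 10 genes have more than the median 60.3% between bins, and Ltf, Amy1 and Bpifb1 have the widest replicate parts.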

How the data were processed

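Polyadenylated RNA of sorted circumvallate papilla epithelium was sequenced in 12 libraries, 4 bins of 3. Per the submitters' processing notes, Salmon 1.4.0 and DESeq2 1.28.1 were used with the mouse build mm39; which annotation was used is not given in the sources used here. Files deposited by the authors hold estimated counts per gene symbol (expected counts, unscaled, 8.24 to 13.0% of values in a library not whole) and TPM per gene symbol. The 10 genes, the gene lists and the tests were chosen with earlier results of these data known.

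After rounding of the expected counts to whole numbers, edgeR 4.0.16 (R 4.3.3) was run with these settings: filterByExpr with a minimum count of 10, TMM scaling and a robust quasi-likelihood fit with 1 term per bin over all 12 libraries. The genes left out held 0.0339% of counts. The robust estimate of spread, which is not edgeR's default, was adopted after results with and without it had been seen; it called fewer of the 10 genes than the default in each of the 4 comparisons between bins. On simulated counts the script was checked against known fold changes. Standard errors are those the F statistic implies. Text names all 10 genes. Of each gene list only some called genes and some others are named, and genes with large fold changes are among those left out. Also named are up to 3 tested genes of at least 5 CPM most correlated with each gene. That search left out the 10 genes themselves and clone or predicted symbols. Sets against Bpifb1 counts, promoter motifs and shared stretches (Biopython 1.88) were added after values were seen. Muc6 and Muc19 were not analysed here.

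Alternatives were DESeq2 1.42.0, other scalings and filters, limma 3.58.1 on TPM, the 2 bins alone, a replicate block and leaving out each library. Replicates 1 to 3 occur in every bin, and per the series' design text a replicate is 1 pool of mice that was then sorted; the numbers were therefore taken to pair libraries, although no label states it. As a check, deviations from the bin means were correlated between libraries of different bins over 11094 genes. Libraries of equal number gave r from 0.0751 to 0.348 in 18 pairs, 17 of them above 0.1. The 36 remaining pairs gave -0.240 to -0.00770, and 12 of 12 libraries matched their own number best. Deviations cancel out within a bin, so the negative values follow largely from the positive ones and are no separate evidence. Coordinates are RefSeq's on GRCm38.p6, not the authors' build.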

Additional observations from a re-analysis of the deposited data

How the results depend on the processing

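No called difference of the 10 genes changed sign under the alternatives run. Uncalled ones did in 6 fits: Lpo in High against HiMed with each of 3 TPM settings, Dcpp2 in both comparisons with HiMed without HiMed replicate 2, and Bpifb1 in HiMed against MedLow without MedLow replicate 2. Between High and Low the count of called genes was 6 and ran from 6 to 9 over the alternatives; with the replicate block it was 9, adding Bpifb1, Amy1 and Ltf, and leaving out 1 library gave 6 to 8. High against HiMed had 4 (5 with the replicate block, which added Muc5b; 3 to 4 without 1 library). HiMed against MedLow had 3 (4 with the replicate block, again adding Muc5b; 0 to 3 without 1 library, where HiMed replicate 3 and MedLow replicate 2 gave 0). MedLow against Low was the least stable, with 3 called: DESeq2 gave 5, the replicate block 5, edgeR without the robust spread (chosen after seeing the data) 5, no filter on low counts 1, and leaving out 1 library 0 to 4. Any difference among bins was called for 9, or 8 to 9 without 1 library. Among replicate numbers, 0 were called, against 4 with DESeq2, 1 without a filter, 1 without the robust spread and 0 to 1 without 1 library. Without the robust spread, which is edgeR's default, the calls numbered 8 in High against Low, 6 in High against HiMed and 4 in HiMed against MedLow; added were Bpifb1 and Amy1 in the first and in MedLow against Low, Muc5b and Bpifb1 in the second and Muc5b in the third. In the 2 bins alone, 9 genes were tested in High against HiMed and 8 in HiMed against MedLow. The block changed no call other than those named here and beside the results. Of single genes' values under the alternatives, 1238 kept their side of the threshold, 51 passed it and 56 fell below it; the cause was not tested. Depth limits Lpo, Aqp5 below High and Dcpp2 outside Low.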
